A study of Mus musculus with 5 samples.

Results

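Zfp36, Zfp36l1, Zfp36l2, Btg1, Btg2, Zc3h12a and Zc3h12d encode proteins that shorten the life of messenger RNA, and their transcripts were followed here in single γδ T cells of the mouse. The rule that lists these 7 genes uses no measured value. The members and the gene lists were, however, chosen with earlier results of these data known. All 7 members have a row among the 27998 genes of the count matrices and the 10721 genes of the authors' table of cluster means. Their levels and shares of cells were read beside the transcripts of 28 cytokine and chemokine genes. Many of these carry AU-rich letters of the kind that ZFP36, ZFP36L1 and ZFP36L2 bind.

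The study sorted γδ T cells by the variable chain of their receptor and sequenced single cells with a droplet kit that tags the 3′ end of each transcript with a unique molecular identifier (UMI). Each group is 1 library: Vγ4 cells of ear skin, and Vγ6 cells of ear skin, of peripheral lymph node (pLN) and of thymus, all from C57BL/6 mice aged 8 weeks. A pool of Vγ6 cells came from mice aged 8 to 10 weeks, with lymph node cells from TcrdCreER mice, thymus cells from ACT-FLPe mice and ear skin cells from TcrdH2BeGFP mice, and no map from cells to tissues is used here. The skin was digested with collagenase and DNase (75 minutes, 37 °C). From the thymus, CD4 and CD8 cells were removed by complement lysis (30 minutes, 37 °C), and the labels give no incubation for the lymph node. Tissue and preparation therefore cannot be told apart. The labels do not say how many mice gave each library.

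After cells with under 200 genes or over 10% mitochondrial UMIs were left out, the libraries held 687 (skin Vγ6) to 2517 (thymus) cells and 793463 to 6607432 UMIs, with a median of 1059 to 2156 UMIs per cell. Any pair of libraries shared 0 to 9 cell barcodes. None of the 6 T cell markers, and none of the 13 markers of interleukin-17-type γδ T cells found in the matrices, was at 0 in any library. The receptor chain genes that the sort used were not analysed here. Cells with at least 2 UMIs of cycling markers made up 55.1% of the lymph node library, 35.8% of the thymus, 9.62% of the pool, 12.1% of skin Vγ4 and 6.55% of skin Vγ6. The summed level of 8 keratinocyte markers ranged from 60.1 CPM (counts per 1e+06 UMIs) in the lymph node to 1099 in skin Vγ4. That of 11 dendritic cell and macrophage markers ranged from 48.1 CPM in skin Vγ4 to 1471 in the lymph node. Only 2 to 14 cells per library lacked every T cell marker and held 2 or more UMIs of another cell type. Cells with a T cell marker UMI and no UMI of another type's defining markers made up 57.5% of the lymph node library (839 of 1458) and 77.2% to 88.1% of the others. Among such cells alone the same number of members was called in each comparison below.

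As background, the zinc finger proteins ZFP36 (tristetraprolin), ZFP36L1 and ZFP36L2 bind AU-rich elements in the 3′ untranslated region (3′ UTR) of short-lived transcripts and bring in the CCR4-NOT complex, which removes the poly(A) tail. BTG1 and BTG2 bind the CAF1 deadenylase of the same complex and the poly(A)-binding protein, and are known for keeping resting T cells quiescent. Zc3h12a encodes Regnase-1, an endonuclease that cuts stem-loops in the 3′ UTR of cytokine transcripts and is itself destroyed after antigen receptor signals, in part by the protease MALT1. Zc3h12d encodes a relative of it. Transcript levels do not report the activity of these proteins, which is set largely by phosphorylation and cleavage.

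The sequences that link both gene groups are AU-rich sites, so one is shown for each member that has it and for 6 of the cytokines. The heptamer TATTTAT was searched on the sense strand of 3′ UTRs taken from the GENCODE vM21 annotation of GRCm38, with overlapping matches counted, and is in capitals below.

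Zfp36 (chr7:28376953-28376977, minus strand): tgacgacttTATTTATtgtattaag
Zfp36l1 (chr12:80108424-80108448, minus strand): atcaaaacgTATTTATtgccaaact
Zfp36l2 (chr17:84184916-84184940, minus strand): tatttaactTATTTATtatcttgtg
Btg2 (chr1:134077251-134077275, minus strand): atgaagagcTATTTATacatgtttt
Il17a (chr1:20734206-20734230, plus strand): tatatgagcTATTTATgaatctatt
Il17f (chr1:20777216-20777240, minus strand): ctatacataTATTTATgacctattg
Il22 (chr10:118209875-118209899, plus strand): atgtaagttTATTTATtataagtat
Tnf (chr17:35199710-35199734, minus strand): gcccccctcTATTTATatttgcact
Areg (chr5:91148384-91148408, plus strand): tttaagtgtTATTTATtttatagct
Cxcl2 (chr5:90905318-90905342, plus strand): gagttcactTATTTATttatctatg

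The heptamer occurred in 5495 of 20979 3′ UTRs, or 26.2%. It occurred in 25 of the 28 cytokine genes, with 9 matches in Csf2, 8 in Tnf, 7 in Cxcl2, 4 in Il22, 3 in Il17a, 2 in Il17f and 1 in Areg, and in none of Ltb, Tgfb1 and Ccl5. Zfp36, Zfp36l1 and Zfp36l2 held 3 matches each in 3′ UTRs of 774, 1835 and 1822 bases, and Btg2 held 1 in 2199 bases. No match was found in Btg1, although 61.8% of UTRs of like length to its 4166 bases hold one, nor in Zc3h12a or Zc3h12d. A match is a description of the letters and says nothing of binding.

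The letters of 5 motifs known from immediate early or NF-κB-driven genes were searched on both strands of the 250 bases before the RefSeq start (GRCm38.p6) of the 6 members in that table. They are shown because the results below set the members beside immediate early transcripts. Btg2 holds a cyclic AMP response element (CRE), TGACGTCA, 166 bases before its start. Zfp36l1 holds a match to the AP-1 letters TGANTCA, where N is any base, here TGATTCA, 129 bases before its start. Zfp36 holds a CArG box 58 bases before its start, and each match is in capitals below. The CRE letters were found in 1.55% of all 32851 promoters, the AP-1 letters in 6.75% and the CArG box in 1.47%. The EGR letters GCGTGGGCG (0.536% of promoters) and the form of the NF-κB motif that was searched (1.41%) were found in no member's window. The windows of Btg1, Zc3h12a and Zc3h12d held none of the 5. Only a single form of the NF-κB motif was searched, so the search cannot show that a window lacks other forms of it. The Zfp36 window lies inside the longer gene model of GENCODE.

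Btg2 (chr1:134079304-134079331, minus strand): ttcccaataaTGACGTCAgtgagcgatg
Zfp36l1 (chr12:80113126-80113152, minus strand): accgcatggcTGATTCAacctcagtgt
Zfp36 (chr7:28379267-28379296, minus strand): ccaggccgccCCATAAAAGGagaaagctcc

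The levels of the members in the 5 libraries fell into a common order for most genes, with both skin libraries high, the lymph node low and the thymus between them. Levels are given as CPM of the summed UMIs of a library, and all intervals are 95% intervals that cover counting error only. With 1 library per group no test between conditions was possible.

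Zfp36 (ENSMUSG00000044786, chr7:28376784-28380253, minus strand), the founding member of the AU-rich element binders, measured 223 CPM in skin Vγ4, 174 in skin Vγ6, 84.4 in the pool, 42.5 in thymus and 24.9 in lymph node. Its Poisson intervals did not overlap between skin Vγ6 (146 to 205) and thymus (37.7 to 47.8), nor between thymus and lymph node (20.4 to 30.2). The skin Vγ4 interval, 203 to 246, just overlapped that of skin Vγ6. A Zfp36 UMI was found in 26.4% of skin Vγ4, 16.4% of skin Vγ6, 10.9% of pooled, 10.1% of thymus and 6.86% of lymph node cells.

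Zfp36l1 (ENSMUSG00000021127, chr12:80107754-80113013, minus strand) stood at 764 CPM in skin Vγ4, 805 in skin Vγ6, 520.1 in the pool, 126 in thymus and 147 in lymph node. It was one of 2 members, with Zc3h12d, for which the lymph node was not the lowest of the Vγ6 tissues: its thymus interval (118 to 135) lay just under that of the lymph node (136 to 159). The intervals of the skin libraries overlapped.

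For Zfp36l2 (ENSMUSG00000045817, chr17:84183931-84187947, minus strand), known with Zfp36l1 for its role at the beta-selection step of thymocytes, the values were 389 CPM in skin Vγ4, 374 in skin Vγ6, 497 in the pool, 197 in thymus and 43.5 in lymph node. The thymus stood nearer to skin for this gene than for the other members. A UMI was found in 36.1% of thymus cells (interval 34.2% to 38.0%) against 29.7% of skin Vγ6 cells (26.3% to 33.3%). That order was reversed when every cell was thinned to 600 UMIs, at 11.6% of thymus and 19.3% of skin Vγ6 cells, so it is not read as a difference.

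Btg1 (ENSMUSG00000036478, chr10:96617006-96622809, plus strand), the antiproliferative deadenylation factor, reached 3156 CPM in skin Vγ4, 3962 in skin Vγ6, 1729 in the pool, 947 in thymus and 478 in lymph node. No interval of these 5 overlapped another. Even after thinning, a Btg1 UMI was present in 87.3% of skin Vγ6 cells (84.5% to 89.8%) and 30.7% of lymph node cells (28.3% to 33.1%). Btg2 (ENSMUSG00000020423, chr1:134075170-134079120, minus strand), its p53-induced relative, measured 463, 329, 306, 145 and 84.8 CPM in the same order of libraries. Its pool and skin Vγ6 values did not differ beyond their intervals.

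Zc3h12a (ENSMUSG00000042677, chr4:125118423-125127840, minus strand), the Regnase-1 gene, gave the widest spread, with 141 CPM in skin Vγ4, 136 in skin Vγ6, 80.04 in the pool, 17.7 in thymus and 4.27 in lymph node, where 18 UMIs lay in 18 of 1458 cells. Zc3h12d (ENSMUSG00000039981, chr10:7832470-7870396, plus strand) ran the other way at the limit of detection, with 46 UMIs (6.96 CPM) in thymus, 11 in lymph node, 7 in the pool, 2 in skin Vγ4 and 1 in skin Vγ6. It was under 20 CPM in every library, the minimum used for a call, and no direction is read for it outside the values given.

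**Figure D1:**
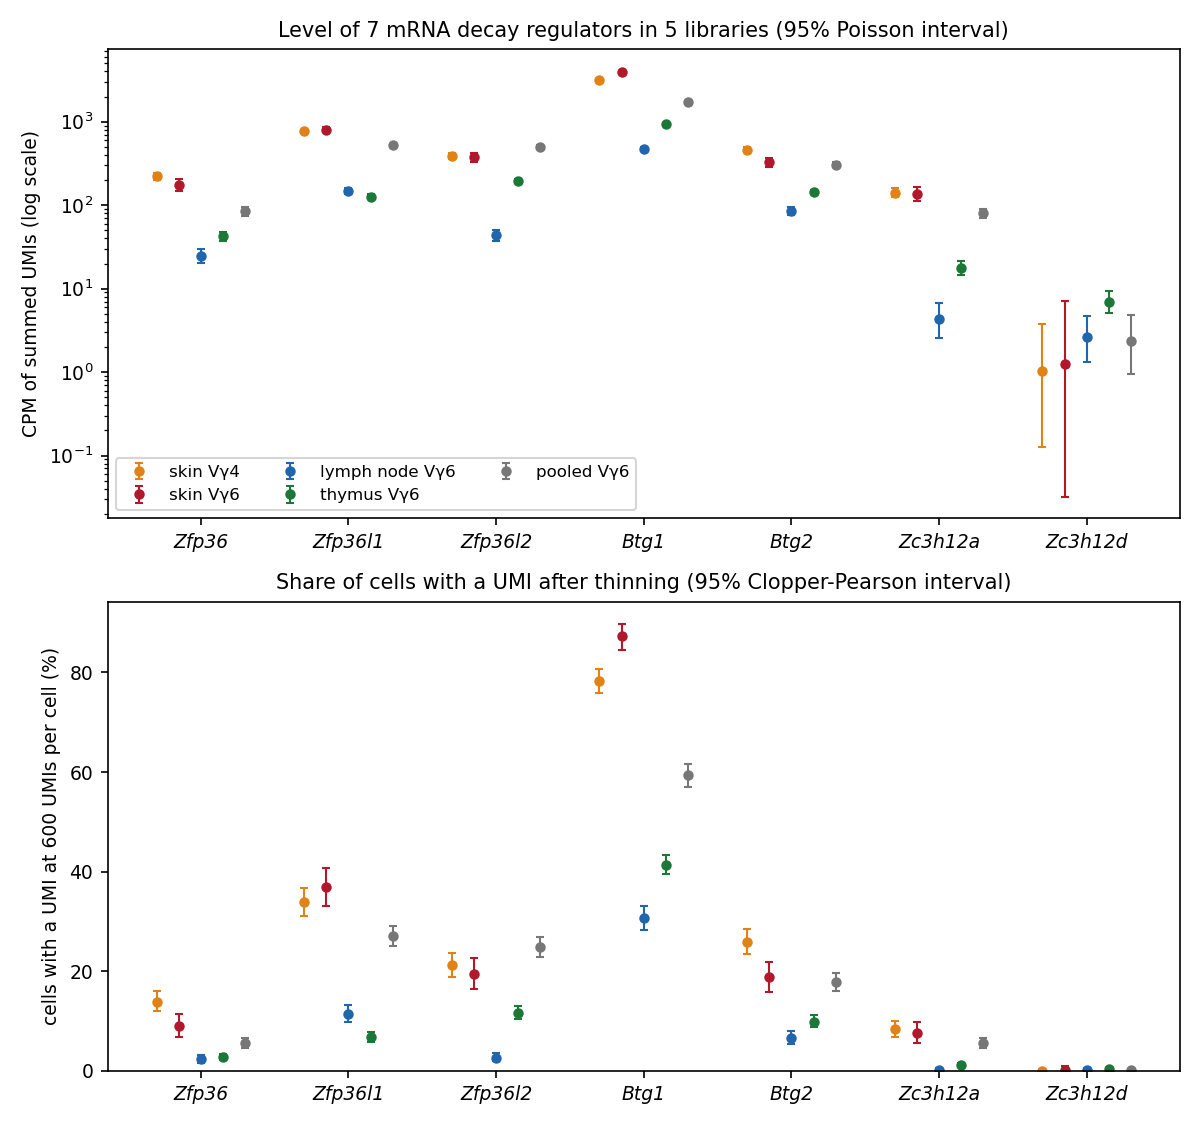
Level (top, CPM on a log axis, with Poisson intervals) and share of cells with a UMI after each cell was thinned to 600 UMIs (bottom, %, with Clopper-Pearson intervals) of the 7 genes in the 5 libraries. Both skin libraries lie above the lymph node for 6 of the genes, with skin Vγ6 from 3.88-fold (Btg2) to 31.8-fold (Zc3h12a) higher, and Zc3h12d is near 0 throughout.

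More members were detected per single cell in skin than in the lymph node. Zc3h12d was left out of this count. In cells thinned to 600 UMIs, a mean of 1.83 of the other 6 members was detected per cell in skin Vγ4. The mean was 1.78 in skin Vγ6, 1.39 in the pool, 0.778 in thymus and 0.535 in lymph node. Cells with 3 or more members made up 23.3% of skin Vγ4, 21.3% of skin Vγ6, 14.4% of the pool, 1.91% of thymus and 0.686% of lymph node cells, a minority in every library. Btg1 alone was detected in 78.3% of thinned skin Vγ4 and 87.3% of thinned skin Vγ6 cells. The counts rise with the level of each single gene, and whether members occurred together beyond those levels was not tested. The thinning left out 13 skin Vγ4, 25 skin Vγ6 and 113 pooled cells that held fewer UMIs, and none of the other libraries.

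In Vγ6 cells of skin against those of lymph node, all 6 members that could be compared were higher in skin. The ratios, with exact conditional binomial intervals, were 6.97 for Zfp36 (5.37 to 9.08), 5.47 for Zfp36l1 (4.89 to 6.12), 8.61 for Zfp36l2 (7.14 to 10.4), 8.30 for Btg1 (7.84 to 8.78) and 3.88 for Btg2 (3.29 to 4.56). Zc3h12a reached 31.8 (19.2 to 55.7). A call needed a ratio of 2-fold or more, an interval without 1 and 20 CPM or more in the higher library. By the same rule 16% of the 5770 genes tested were higher in skin and 30.4% lower, and higher genes made up 34.4% of all calls (50.3% with median-of-ratios and 47.1% with TMM scaling factors). The median log2 ratio of the 6 members was 2.90 against -0.38 over all genes tested.

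Between thymus and lymph node the members parted. Zfp36l2 alone was called, 4.53-fold higher in thymus (3.88 to 5.32), among the 5 members tested, where 11.8% of 5703 genes were higher and 11.3% lower. Btg1 at 1.98-fold (1.89 to 2.09), Btg2 at 1.71-fold (1.51 to 1.93) and Zfp36 at 1.71-fold (1.36 to 2.15) stayed under the fold set for a call. Zfp36l1 had a ratio of 0.858 (0.773 to 0.954). Zc3h12a, at 4.14 (2.51 to 7.23), and Zc3h12d, at 2.66 (1.36 to 5.71), were under the minimum level in both libraries. With median-of-ratios or TMM scaling factors Btg1 was called too, at 2.10-fold or 2.15-fold.

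Skin Vγ6 against thymus showed the reverse grouping, with 5 of the 6 members tested higher in skin and Zfp36l2 the exception. Zfp36l1 was 6.37-fold higher (5.74 to 7.07), Btg1 4.18-fold (4.01 to 4.37), Zfp36 4.09-fold (3.31 to 5.03), Btg2 2.27-fold (1.97 to 2.61) and Zc3h12a 7.69-fold (5.86 to 10.1). The ratio of Zfp36l2 was 1.90 (1.67 to 2.16). Of all 5656 genes tested, 13.7% were higher and 24.5% lower, so that higher genes were 35.8% of calls (50.1% with median-of-ratios and 44.4% with TMM factors). Under either set of factors Zfp36l2 was called too. These 3 comparisons share their libraries, so they are not separate evidence.

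Between Vγ4 and Vγ6 cells of skin 0 of 6 members were called, where 4.26% of 4973 genes were higher and 3.18% lower, or 57.3% of calls higher (67.5% with TMM factors). The ratios ran from 0.796 for Btg1 (0.763 to 0.832) to 1.41 for Btg2 (1.22 to 1.62). Zfp36 at 1.28 (1.06 to 1.57) also had an interval without 1, and those of Zfp36l1, Zfp36l2 and Zc3h12a included it. Keratinocyte markers differed between these libraries, with Krt14 at 249 CPM in Vγ4 and 1.26 in Vγ6, and their part in the result was not tested.

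**Figure D2:**
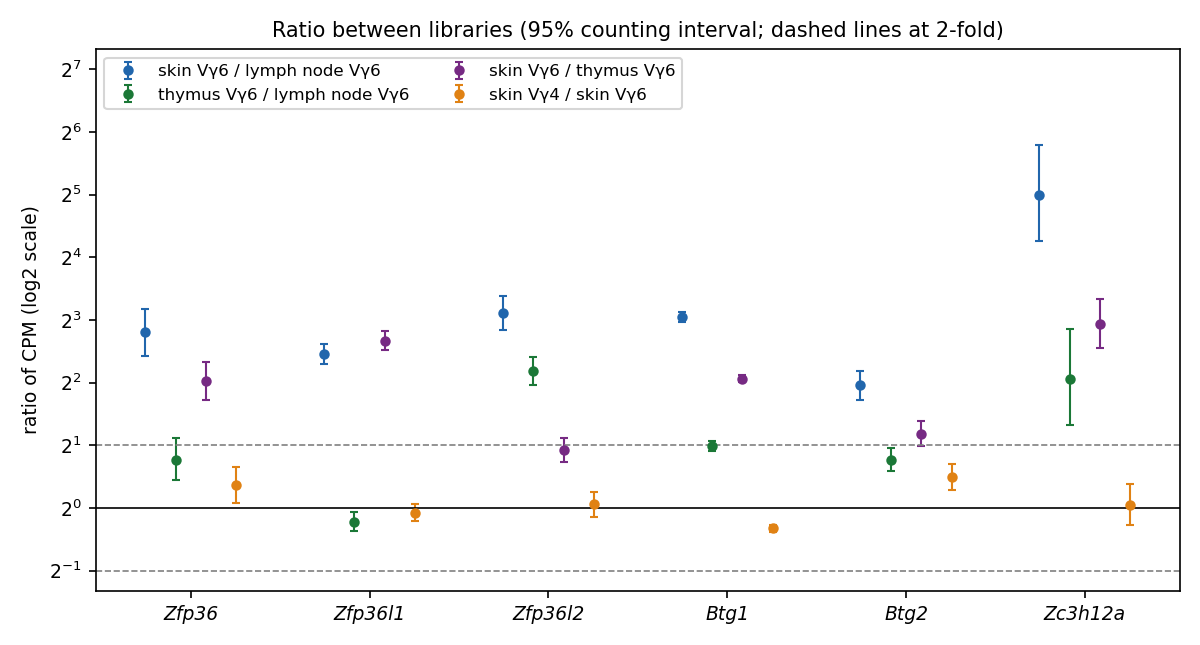
Ratio of CPM (log2 axis) of 6 genes in 4 comparisons, with exact conditional binomial 95% intervals and dashed lines at 2-fold in either direction. Points for skin Vγ6 against lymph node all lie above 2-fold, those for skin Vγ4 against Vγ6 all lie between the dashed lines, and Zfp36l2 is the single gene called in thymus against lymph node (Zc3h12a, at 4.14, is under the minimum level) and the single one under 2-fold in skin against thymus.

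Cell division and then immediate early transcripts were read beside these ratios. When dividing cells were left out of every library, the skin to lymph node ratios were 5.09 for Zfp36, 3.49 for Zfp36l1, 6.47 for Zfp36l2, 4.79 for Btg1, 2.20 for Btg2 and 21.2 for Zc3h12a, and all 6 were still called. Over all genes, 822 were called higher in skin and 1710 lower in this setting. The thymus to lymph node ratio of Zfp36l2 was 3.78 in the cells kept and that of Btg1 1.33. Each of these ratios was smaller than over all cells, and the cells kept can still hold 1 cycling UMI. Over all cells the 12 cycling markers were all lower in skin Vγ6 than in lymph node, with Ccnb1 20.2-fold, Tyms 17.3-fold and Ube2c 14.4-fold down.

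Within the lymph node library the dividing cells had lower CPM of 5 members. Btg1 stood at 349 CPM in 803 dividing cells and 865 CPM in the other 655, a ratio of 0.403 (0.369 to 0.441). Btg2 had a ratio of 0.384 (0.310 to 0.475), Zfp36l1 0.513 (0.436 to 0.605), Zfp36 0.620 (0.410 to 0.952) and Zfp36l2 0.675 (0.492 to 0.933). Dividing cells held more UMIs, with a median of 2682 against 1444, and per cell the Btg1 counts were close, at 1.36 and 1.40 UMIs. Per cell Btg2 stood at 0.237 and 0.255, Zfp36l1 at 0.466 and 0.376, Zfp36 at 0.0847 and 0.0565 and Zfp36l2 at 0.152 and 0.0931 UMIs, so that the last 3 had more UMIs per dividing cell. The levels in CPM are shares of a total that was larger in the dividing cells. The rule of at least 2 cycling UMIs itself favours cells with many UMIs. The part of total UMIs in these ratios was not tested.

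The same direction in CPM held in thymus, where Btg1 measured 743 CPM in 900 dividing cells and 1154 CPM in the rest, a ratio of 0.644 (0.612 to 0.678), with 0.727 for Btg2 and 0.811 for Zfp36l2. In the pool the ratios were 0.454 for Btg1 and 0.391 for Btg2. In skin Vγ4 they were 0.729 and 0.659, while Zfp36l1 was at 0.991 (0.865 to 1.13). Dividing cells held more UMIs here too, at medians of 3106.5 against 1922 in thymus, 2495 against 1262 in the pool and 2253.5 against 1418 in skin Vγ4. A lower CPM in them therefore does not mean fewer UMIs per cell. Skin Vγ6 had 45 dividing cells, too few to split. The splits of cells by division, by immediate early transcripts and by Cd163l1 were chosen after the data had been seen.

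Immediate early genes, which are induced within minutes of a stimulus and also by tissue digestion, were high in the same libraries as the members. The summed level of 22 such genes was 12720 CPM in skin Vγ6, 11909 in skin Vγ4, 10464 in the pool, 5184 in thymus and 1979 in lymph node. In skin Vγ6 against lymph node 18 of the 20 tested were higher and 0 lower, with Nr4a1 at 325-fold, Atf3 at 156-fold and Gadd45b at 84.7-fold. In thymus against lymph node 11 of 17 were higher and 0 lower. In skin Vγ4 against Vγ6 1 of 20 was called, Klf4 at 2.21-fold. Heat shock genes, which also respond to handling, had 5 of 11 higher and 1 lower in skin Vγ6 against lymph node, led by Hspa1a at 30.5-fold, Hspa1b at 10.2-fold and Hspa8 at 3.47-fold, and 9 of 12 higher in thymus against lymph node. Over all genes 16% were higher and 30.4% lower in skin Vγ6 against lymph node, and 11.8% and 11.3% in thymus against lymph node. The part of immediate early and heat shock genes in the members' ratios was not tested.

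Restricting every library to cells without a UMI of Fos, Jun or Egr1 left the members high in skin. Zfp36 measured 169 CPM in such skin Vγ6 cells and 22.3 in such lymph node cells, a ratio of 7.59 (5.33 to 10.8). Zfp36l2 had 334 against 47.4 CPM, a ratio of 7.04 (5.52 to 8.99), and Zc3h12a 135 against 5.50 CPM, a ratio of 24.6 (13.9 to 45.9). Btg1 was at 7.90, Zfp36l1 at 5.55 and Btg2 at 3.66. Cells without a UMI of these 3 genes may still express them, since few transcripts are caught per cell. They can also hold other immediate early transcripts that were not filtered, such as Junb (3294 CPM over all skin Vγ6 cells) and Gadd45b (1689 CPM). The restriction therefore does not set the immediate early state apart, and the part of that state in these ratios was not tested.

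Within a library, cells with a UMI of Fos, Jun or Egr1 were set against cells without. In the pool, the CPM of Zfp36 was 126 in cells with such a UMI and 56.7 in cells without, a ratio of 2.23 (1.72 to 2.89), followed by Zc3h12a at 1.63 (1.25 to 2.12), Btg2 at 1.42 (1.25 to 1.62), Zfp36l1 at 1.40, Zfp36l2 at 1.31 and Btg1 at 1.27. In skin Vγ6 the only interval without 1 was that of Btg1, at 1.09 (1.02 to 1.17). In thymus those of Btg2, at 1.29 (1.13 to 1.47), and Zfp36l1, at 1.23 (1.07 to 1.41), excluded 1. The pool mixes tissues whose fitted cells differ in the members, as given below, and the part of this mix in its ratios was not tested. The difference between libraries was not tested.

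The pathway around the members was read from lists of related and partner genes. Family relatives were high in skin like the members, in a list that also counts Arid5a, whose product opposes Regnase-1. Of 7 tested in skin Vγ6 against lymph node, 5 were higher and 0 lower, where 16% and 30.4% of all genes were. The median log2 ratio of the list was 2.84. Tob1 and Tob2, BTG-type proteins that bind the CCR4-NOT deadenylase, measured 149 against 12.6 CPM and 216 against 18.3 CPM, each 11.8-fold. N4bp1, which encodes another RNase of the Regnase type, measured 169 against 19.2 CPM, or 8.78-fold. Btg3 at 7.47-fold and Arid5a at 2.70-fold were the other calls. In thymus against lymph node 4 of 6 were higher and 0 lower, where 11.8% and 11.3% of all genes were. Tob1 stood at 5.74-fold (4.31 to 7.77), Tob2 at 3.77-fold and Arid5a, which protects transcripts from Regnase-1, at 3.54-fold. Skin against thymus had 4 of 7 higher and 0 lower, where 13.7% and 24.5% of all genes were, and Vγ4 against Vγ6 had no call.

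Among the enzymes that carry out decay few genes were higher in skin. Of 12 deadenylation genes tested in skin Vγ6 against lymph node, 0 were higher and 4 lower, the latter a share near the 30.4% of all genes, with a median log2 ratio of 0.03. Cnot8, a catalytic CAF1 subunit and partner of BTG proteins, gave 3 UMIs in skin and 137 in lymph node, or 8.61-fold lower (2.88 to 42.2). Cnot1, the scaffold, was 2.28-fold lower and Cnot11 2.08-fold lower. With either set of scaling factors the same list had 2 higher and 1 lower, so its direction depends on the scaling. In thymus against lymph node 0 of 13 were called.

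Decapping and exosome genes were mostly lower in skin. Of 14 decapping and 5′ decay genes tested, 0 were higher and 8 lower, with a median log2 ratio of -1.28. The ring subunit genes Lsm2, Lsm6 and Lsm3, shared with splicing complexes, were 5.17-fold, 4.58-fold and 3.85-fold lower. Of 12 exosome and 3′ decay genes 1 was higher, Exosc2 at 3.10-fold, and 8 lower, with Exosc7 at 7.64-fold, Exosc3 at 5.38-fold and Exosc8 at 4.39-fold lower. These lists kept their lower direction with median-of-ratios factors, at 7 and 6 lower, with TMM factors, at 8 and 7 lower, and with dividing cells left out, at 8 and 7 lower. In skin against thymus 5 of 14 and 3 of 12 were lower, where 24.5% of all genes were, and in thymus against lymph node 0 of 14 and 2 of 12, where 11.3% were, so that the exosome counts lay near the background.

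Other AU-rich element and mRNA-binding regulators, among them the stabiliser HuR and the AUF1 gene Hnrnpd, had few calls in skin Vγ6 against lymph node. Of 22 tested 1 was higher, Ago2 at 3.72-fold, and 2 were lower, Hnrnpd at 2.34-fold and Upf1 at 2.07-fold, where 16% and 30.4% of all genes were. Under both scaling factors 2 were higher and 0 lower. Their median log2 ratio, -0.31, lay close to that of all genes.

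Genes that regulate the decay proteins had 5 of 13 higher and 0 lower in skin Vγ6 against lymph node, where 16% and 30.4% of all genes were. The other 8 were not called, and the median log2 ratio of the list was 0.12. Dusp1, the phosphatase that turns off p38 and so favours active ZFP36, measured 708 against 57.2 CPM, or 12.4-fold (10.6 to 14.5). Mapkapk3, a kinase of the p38 branch, was 6.06-fold higher, and Malt1, whose product cuts Regnase-1, was 4.46-fold higher (2.37 to 8.30) on 21 and 25 UMIs. In thymus against lymph node 4 of 13 were higher, where 11.8% of all genes were, with Dusp1 and Dusp2 each at 3.47-fold. Between the skin subsets Dusp2 was 2.17-fold higher in Vγ4 and Malt1 2.44-fold lower, the 2 calls of that list.

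**Figure D3:**
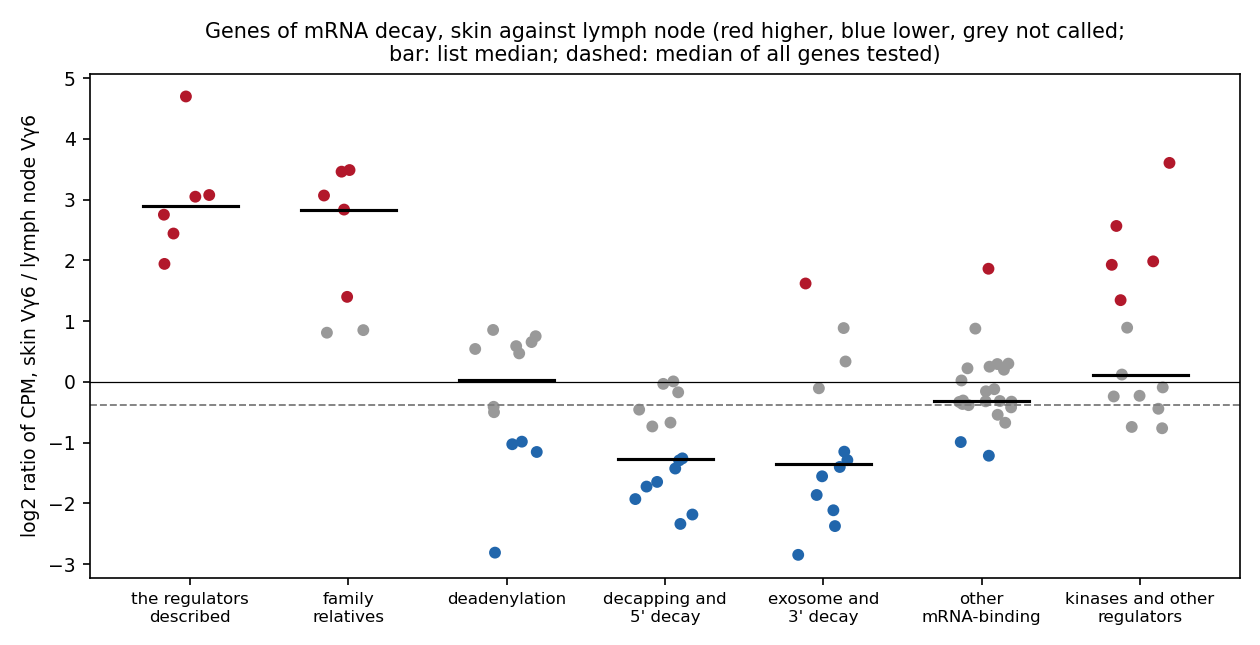
Log2 ratio of skin Vγ6 over lymph node for each gene tested of 7 lists, one point per gene, red for genes called higher, blue for lower and grey for not called, with a bar at each list's median and a dashed line at the median of all genes (-0.38). Members and family relatives lie above the line, at medians of 2.90 and 2.84, and decapping and exosome genes below it, at medians of -1.28 and -1.34.

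Transcripts that the members are known to act on were high in the same library. Of 17 targets of ZFP36 or Regnase-1 tested in skin Vγ6 against lymph node, 12 were higher and 1 lower, and of 16 cytokine genes 13 were higher and 0 lower. Over all genes 16% were higher and 30.4% lower. Many of these calls, such as Il17f, Areg, Cxcl2, Rel and Ier3, had under 20 CPM in lymph node and passed the minimum only through skin. Such genes could not be called lower, so the counts are a description only. Some genes stand in both lists. Targets of Regnase-1 that build the response of activated T cells were among them, with the NF-κB subunit gene Rel at 921 against 17.8 CPM, Nfkbiz at 231 against 5.70, Nfkbid at 186 against 5.70 and the costimulator Icos at 403 against 145. The early response gene Ier3 had 76 UMIs in skin and 1 in lymph node. Ccnd3, a cyclin D gene, was the one lower, at 2.48-fold (1.91 to 3.27), and Bcl2, Myc, Notch1 and Ccnd2 were not called. Il17a measured 640.2 against 9.26 CPM, Il17f 1009.5 against 0.95, Il22 152 against 1.19, Tnf 151 against 10.2 and Cxcl2 498 against 0.475. Areg, an epithelial repair factor, gave 460 UMIs (580 CPM) in skin and 0 in the lymph node, where 3 counts would be 0.712 CPM. Tnfsf11 (RANKL) at 318 against 3.80, Tgfb1 at 368 against 90.0, Tnfsf14 at 102 against 22.1, Tnfsf8 at 34.0 against 3.09, Xcl1 at 39.1 against 0.95, Csf2 at 32.8 against 5.70 and Ccl20 at 27.7 against 0 CPM made up the other calls. Ltb, Ccl5 and Lta, by contrast, stood at 1967 against 1258, 231 against 140 and 40.3 against 25.2 CPM and were not called. Il2, under the minimum in both, passed 20 CPM in the pool alone, at 27.7.

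In thymus against lymph node, where Zfp36l2 was the one member called, the cytokines were mixed. Of 10 tested, 5 were higher and 3 lower, where 11.8% and 11.3% of all genes were. Here too several calls passed the minimum through the higher library only. Il22 measured 116 against 1.19 CPM, Tnfsf11 84.0 against 3.80, Areg 29.2 against 0, Xcl1 27.4 against 0.95 and Il17a 26.9 against 9.26. Of the targets 6 of 10 were higher, among them Rel at 3.59-fold and Bcl2 at 3.42-fold, and Ccnd3 was lower at 2.19-fold. Among cytokines Ltb at 3.00-fold, Tnfsf14 at 3.17-fold and Lta at 5.04-fold were lower. Skin Vγ6 against thymus had 13 of 16 cytokines higher and 0 lower, where 13.7% and 24.5% of all genes were, with the same limit. Il17f was among the higher ones at 94.0-fold (73.6 to 121), while Il22, at 152 and 116 CPM, was not called.

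Between Vγ4 and Vγ6 skin cells no member was called and several cytokines were. Il17f measured 3095 CPM in Vγ4 and 1009.5 in Vγ6, or 3.07-fold higher (2.85 to 3.31), and Ccl20 145 and 27.7 CPM, or 5.22-fold higher. The Ccl20 value rests on few cells, with 280 UMIs in 31 skin Vγ4 cells, and after thinning to 600 UMIs per cell the levels were 34.3 and 25.2 CPM. Il22 was 9.83-fold lower in Vγ4, at 15.5 CPM, Ltb 2.71-fold lower and Cxcl2 2.02-fold lower, with Ccl5, Xcl1 and Csf2 also lower. This made 2 of 16 higher and 6 lower, where 4.26% and 3.18% of all genes were. Il17a at 532 and 640.2 CPM, Tnf at 95.7 and 151, Areg at 468 and 580, Tnfsf11 at 402 and 318, Tnfsf8 at 62.1 and 34.0, Tnfsf14 at 69.3 and 102, Tgfb1 at 359 and 368, and Lta at 23.8 and 40.3 CPM were not called. Summed over the 28 genes, cytokines stood at 6266 CPM in Vγ4 and 6215 in Vγ6, and the 7 members at 5138 and 5782 CPM.

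Within a library, cells that carried an Il17a or Il17f transcript were set against those that did not, with the cytokine UMIs taken out of the totals. Such cells numbered 858 of 1178 (72.8%) in skin Vγ4, 208 of 687 (30.3%) in skin Vγ6, 156 of 2517 (6.20%) in thymus and 345 of 2006 (17.2%) in the pool. Lymph node had 32, under the 50 set as a minimum. Positive cells held more UMIs, at a median of 1513.5 against 1314.5 in skin Vγ4 and 1159.5 against 1007 in skin Vγ6. Cells of one library are not replicates, so no test is given.

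Zfp36l2 was lower in the positive cells of all 4 libraries. It measured 366 against 470 CPM in skin Vγ4, a ratio of 0.778 (0.664 to 0.915), and 301 against 415 CPM in skin Vγ6, a ratio of 0.726 (0.554 to 0.943). In thymus it stood at 130 against 202 CPM, a ratio of 0.644 (0.481 to 0.845), and in the pool at 413 against 518 CPM, a ratio of 0.797 (0.687 to 0.922). No other member had intervals under 1 in all 4. With Il17a alone as the mark the skin Vγ4 ratio was 1.06 (0.911 to 1.24), after thinning the intervals of skin Vγ6 and thymus included 1, and among T cells only that of skin Vγ6 did (0.578 to 1.02).

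Zc3h12a and Btg1 had higher levels in the positive cells of thymus and pool. The pool mixes cells of 3 tissues, and its skin-fitting cells, described below, were higher than the rest in both Il17f and these members. The part of tissue make-up in the pool ratios, here and for Zfp36l2, was not tested. The thymus library is mixed too. Among the authors' thymus clusters, described below, the Il17a mean is 1.18 in Thy_2 and 0.0298 to 0.0894 in the others. Thy_2 also has the highest thymus means of Zc3h12a (0.441), Btg1 (17.4) and Zfp36l1 (2.36) and the lowest of Zfp36l2 (1.14). The part of cluster make-up in the thymus ratios, here and for Zfp36l2, was not tested. Zc3h12a measured 40.9 against 16.2 CPM in thymus, a ratio of 2.53 (1.42 to 4.25), and 140 against 67.5 CPM in the pool, a ratio of 2.08 (1.55 to 2.75), while skin Vγ4 gave 1.07 (0.806 to 1.45) and skin Vγ6 0.881 (0.567 to 1.34). Btg1 had ratios of 1.54 (1.41 to 1.68) in thymus, 1.61 (1.51 to 1.71) in the pool, 1.19 (1.12 to 1.27) in skin Vγ4 and 1.05 (0.974 to 1.13) in skin Vγ6. Zfp36l1 followed Btg1 in thymus at 1.75 and in the pool at 1.32 but not in skin Vγ6, at 0.854 (0.717 to 1.01).

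**Figure D4:**
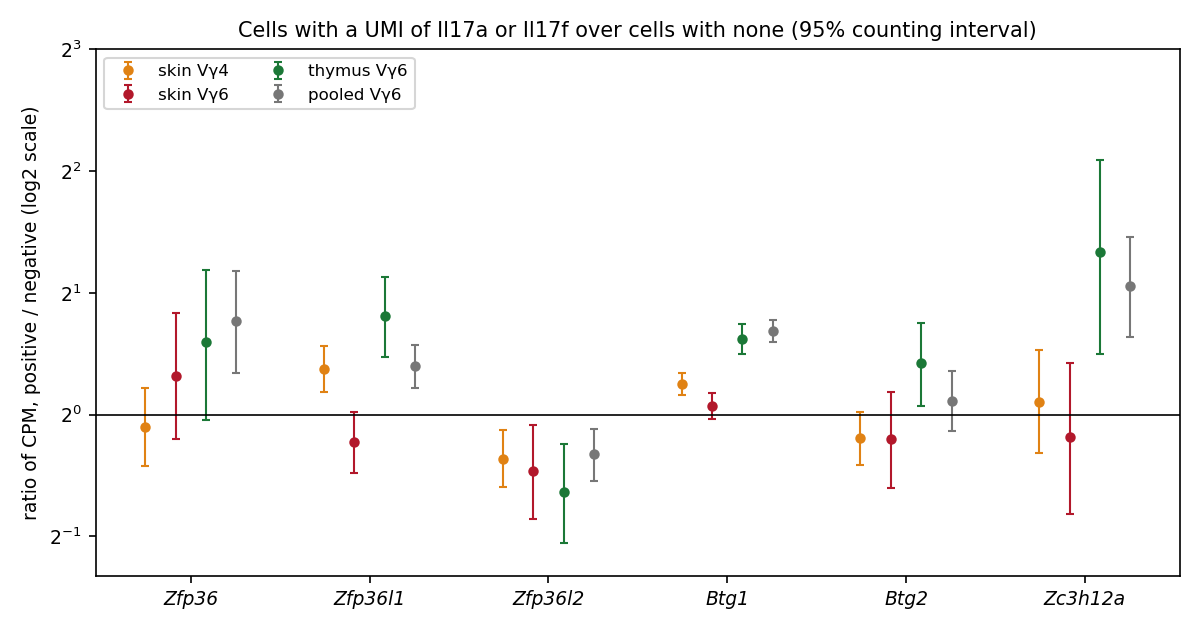
Ratio of CPM in cells with an Il17a or Il17f UMI over cells without one, for 6 genes in 4 libraries, with exact conditional binomial 95% intervals and a line at a ratio of 1. Zfp36l2 lies under 1 in each library (0.644 to 0.797), and Zc3h12a lies at 2.53 in thymus and 2.08 in the pool but near 1 in both skin libraries.

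Other cytokines gave mixed relations to Zfp36l2. In thymus a Zfp36l2 UMI was found in 35.5% of 183 Il22-positive cells and 36.1% of the rest, and in 51.8% of 114 Areg-positive cells (42.2% to 61.2%) against 35.3% of the rest. In skin Vγ6 it was found in 44.4% of 54 Il22-positive cells (30.9% to 58.6%) against 28.4%, and in 20.8% of 154 Areg-positive cells (14.7% to 28.1%) against 32.3%. The Areg relation thus ran in opposite directions in these 2 libraries. These shares were not thinned, and the difference between libraries was not tested.

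Cd163l1 (SCART1), a scavenger receptor typical of Vγ6 cells that make interleukin-17, marked a similar contrast. In thymus Zc3h12a measured 28.5 CPM in 881 cells with a Cd163l1 UMI and 11.5 in 1636 without, a ratio of 2.49 (1.70 to 3.67), and Zfp36l2 163 against 217 CPM, a ratio of 0.752 (0.666 to 0.847). In the pool, where the mix of tissues was again not taken into account, the ratios were 2.08 (1.47 to 3.00) and 0.619 (0.557 to 0.688). The mix of clusters within the thymus library was not taken into account either. Skin Vγ6 gave 0.722 for Zfp36l2 (0.571 to 0.913) and 0.962 for Zc3h12a (0.645 to 1.44). Among Cd163l1-positive cells alone, 4 members were higher in thymus than in lymph node: Zfp36 at 2.15-fold, Zfp36l2 at 3.71-fold, Btg1 at 2.54-fold and Zc3h12a at 6.70-fold. Over all genes, 630 were called higher and 597 lower in the same comparison.

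The pool held Vγ6 cells of all 3 tissues in 1 library, and each of its cells was given the tissue library whose profile fitted it best. The fit used 5976 genes and left out the members and all gene lists other than those of cell type and cycling markers. Cycling markers thus stayed in, and the part of cell division in the fit was not tested. By this fit 614 cells matched skin, 664 lymph node and 728 thymus, which is an assignment by likeness and not a label. Zfp36 measured 191 CPM in skin-fitting, 41.0 in lymph node-fitting and 59.1 in thymus-fitting cells, and Zc3h12a 180, 35.3 and 59.9 CPM. Btg1 stood at 2983, 1027 and 1599 CPM and Zfp36l2 at 700, 222 and 618 CPM. The order of the separate libraries was thus kept for these 4 genes.

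The gaps in the pool were narrower than between the separate libraries. Skin-fitting over lymph node-fitting cells gave 4.67 for Zfp36 (3.29 to 6.75), 5.11 for Zc3h12a (3.52 to 7.58), 3.15 for Zfp36l2, 2.90 for Btg1, 1.93 for Zfp36l1 (1.71 to 2.18) and 1.87 for Btg2. Immediate early transcripts were also nearer: Junb stood at 5305 CPM in skin-fitting and 1969 in lymph node-fitting cells of the pool, where the lymph node library had 208, and Nr4a1 at 750 and 160 CPM against 1.4 in that library. Il17f separated the fitted groups at 778, 22.9 and 48.3 CPM in skin-, lymph node- and thymus-fitting cells, and Tnf at 194, 18.1 and 15.8 CPM. Il17a did so less, at 343.5, 189 and 269 CPM.

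The authors' deposited table gives mean expression in 8 clusters of Vγ6 cells, 2 named for lymph node, 1 for skin and 5 for thymus, scaled so that each column sums to 10000. How the clusters were made is not given in the sources used here, and the means carry no spread. In the authors' deposited table Zfp36, Zfp36l1, Zfp36l2, Btg1, Btg2 and Zc3h12a all have their highest mean in the skin cluster, at 1.65, 8.26, 3.44, 42.4, 3.37 and 1.34 per 10000. Zc3h12d is listed at 0 there and is highest in the first thymus cluster (Thy_1), at 0.121.

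The thymus clusters differed among themselves. In the authors' deposited table Thy_2 has the highest thymus means of Btg1 (17.4), Zfp36l1 (2.36), Zfp36 (0.781) and Zc3h12a (0.441), while its Zfp36l2 mean (1.14) is the lowest of the 5. Thy_1 and Thy_4 hold the most Zfp36l2, at 2.63 and 2.73, and the lymph node clusters pLN_1 and pLN_2 the least, at 0.611 and 0.352. Thy_5 has the lowest thymus means of Btg1 (4.44) and Zfp36l1 (0.575). The lymph node clusters split on Btg1, at 8.49 in pLN_1 and 4.05 in pLN_2, and on Zfp36l1, at 2.46 and 1.05.

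**Figure D5:**
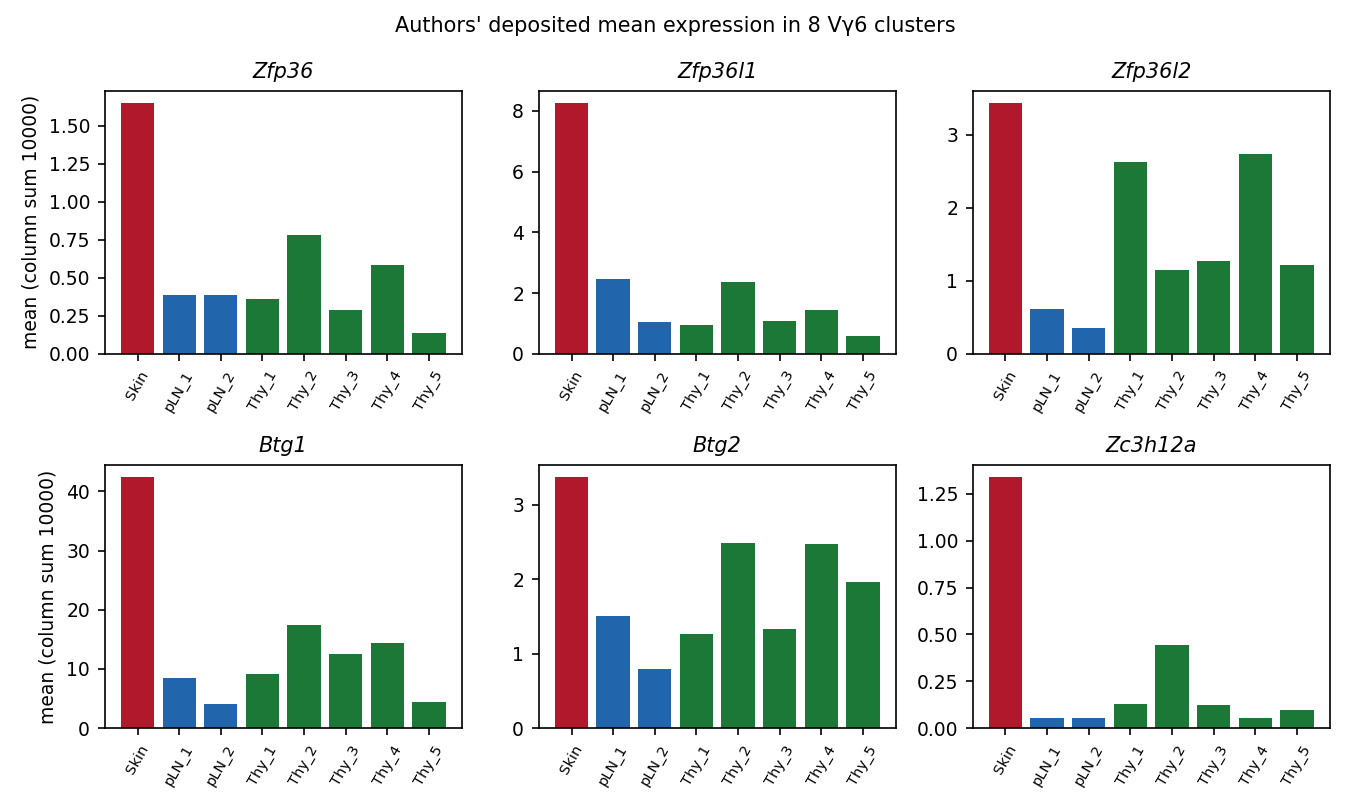
The authors' mean expression (per 10000, one bar per cluster, from 0) of 6 genes in 8 Vγ6 clusters, with skin in red, lymph node in blue and thymus in green. The skin bar is highest in each panel, and the Zfp36l2 bars of Thy_4 (2.73) and Thy_1 (2.63) come next to that of skin (3.44).

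The authors' deposited marker table lists genes of a cluster against the other cells, with natural log fold changes and p-values over cells, which are not replicates. For the skin cluster it lists 6 of the 7 members, where 47.1% of the 10721 genes are listed. Its natural log fold changes are 1.36 for Btg1 (detected in 96.3% of cells of the cluster and 73.3% of others), 1.25 for Zfp36l1 (60.2% and 25.0%), 0.709 for Zc3h12a, 0.610 for Zfp36, 0.567 for Zfp36l2 and 0.528 for Btg2. For Thy_1 the authors' deposited table lists all 7 members (39.6% of genes listed), with Zfp36l2 at 0.431 and Zc3h12d at 0.084 above the other cells and Zfp36l1 at -0.729 and Btg1 at -0.516 below. For Thy_2 it lists 5 (22.1%), with Btg2 at 0.267, Btg1 at 0.245 and Zfp36l2 at -0.284. Of the other clusters the authors' deposited table lists 5 members for pLN_1 (40.2% of genes listed), 3 for pLN_2 (47.7%), 1 for Thy_3 (12.8%), 2 for Thy_4 (6.99%) and 3 for Thy_5 (26.9%). Zfp36l2 is at -0.662 in pLN_1 and -0.745 in pLN_2, and Btg1 at -0.571 and -1.14, while Thy_4 has Zfp36l2 at 0.321 and Btg2 at 0.229. A listing does not mean that a gene passed: in the authors' deposited table the adjusted p over cells is 0.133 for Zfp36l2 in skin, 0.916 and 0.367 for Zfp36l2 and Btg2 in Thy_4, and 1 for Zfp36l2 in Thy_2, Zfp36 in Thy_1 and Thy_2, and Zfp36l1 in Thy_3.

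Genes whose mean followed that of a member most closely over the 8 clusters were found by Pearson's r of log2(mean + 0.1) among 2407 genes with at least 1 per 10000 in some cluster. They were Nfkbid (0.985), Fam110a (0.973) and Gadd45b (0.960) for Zc3h12a, and Sdf2 (0.977), Tnf (0.973) and Gpr65 (0.968) for Zfp36l1. Map3k8 (0.961), Rab8b (0.949) and Degs1 (0.946) came first for Zfp36, and Tob2 (0.950), 5031425E22Rik (0.934) and Rsbn1 (0.911) for Btg2. Ubxn2a (0.972), Vps8 (0.967) and Relb (0.964) came first for Btg1, and Bcl10 (0.982), Ftl1 (0.974) and Arid4b (0.970) for Zfp36l2. Between members, r was 0.918 for Zfp36 and Zfp36l1, 0.864 for Zfp36 and Btg1, and 0.332 for Zfp36l1 and Zfp36l2. The order of the closest genes depends on the measure, with Prr7 first for Zfp36 at a pseudocount of 1 and Il17f by rank correlation, and Polr2a first for Btg1 by rank correlation, and in 7 of 12 such alternatives at most 1 of the 3 closest genes was shared. The 8 means share 3 tissues and their preparation, so these values describe the table and carry no p.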

How the data were processed

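The deposited matrices hold raw counts of UMIs for 27998 genes per cell barcode. Tools listed in the submitters' processing notes are Cell Ranger 2.0 and Seurat 2.3, with the build mm10 and no role for each. The authors' mean table was deposited as a normalized signal that sums to 10000 per cluster. The authors' marker table gives natural log fold changes, p-values over cells and detection fractions, of which percentages were computed here.

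Barcodes with at least 200 genes and at most 10% mitochondrial UMIs were kept. No doublet caller was run and no other cell type was removed in the main values. UMIs were summed per library, and ratios of CPM were given exact conditional binomial intervals, levels Poisson intervals and shares Clopper-Pearson intervals (numpy 2.4.6, pandas 2.3.3, scipy 1.17.1, matplotlib 3.10.9). Log2 ratios used a pseudocount of 1 CPM. Genes were counted as tested with at least 20 CPM in the higher library. The calling procedure was tested on simulated data. TMM factors came from edgeR 4.0.16 in R 4.3.3 and were used only as an alternative scaling.

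The members and gene lists were chosen with earlier results of these data known. All 7 members are named, with the 3 called genes of largest change per list and every cytokine with at least 20 CPM in any library. Some further genes of the lists are named for their function or as single calls, after their values were seen. Sites were read from GENCODE vM21 transcripts, and promoters from RefSeq, in which Zfp36l2 was not matched. Alternatives were other scaling, cell filters, level minimums, thinning to 600 UMIs, T cells only, no dividing cells, Cd163l1-positive cells only and, added after the data had been seen, only cells without a UMI of Fos, Jun or Egr1.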

Additional observations from a re-analysis of the deposited data

How the results depend on the processing

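No paired analysis was possible because each group had 1 library. The count of members called was 6 of 6 for skin Vγ6 against lymph node and 0 for skin Vγ4 against Vγ6 in every alternative run. For skin against thymus it was 5, apart from 6 with either scaling factor and 4 in Cd163l1-positive cells. For thymus against lymph node it was 1, and 2 with median-of-ratios factors, 2 with TMM factors, 2 with each cell thinned to 600 UMIs, 2 as a mean over cells, 2 in cells without a UMI of Fos, Jun or Egr1 (Btg1 at 2.00-fold), 3 with no CPM minimum and 4 in Cd163l1-positive cells. Zc3h12a was the member added by the mean over cells (3.66-fold) and by thinning (3.59-fold, 31 and 5 UMIs). In a second draw, that used for shares of cells, Zc3h12a was under the minimum at 17.9 CPM in thymus (27 UMIs) and 2.29 in lymph node (2 UMIs), so the call depends on the draw. The causes were not tested, apart from the minimum, which admits Zc3h12a and Zc3h12d by its construction. Scaling moved the background. The median log2 ratio of all genes in skin against lymph node went from -0.38 to -0.02 (median-of-ratios) or -0.08 (TMM), and higher genes made up 34.4% of all calls, then 50.3% or 47.1%. For skin against thymus their share went from 35.8% to 50.1% or 44.4%, for thymus against lymph node from 51.0% to 56.9% or 59.8%, and for Vγ4 against Vγ6 from 57.3% to 62.8% or 67.5%. The log2 ratio of Zfp36l1 in thymus against lymph node ranged from -0.75 to 0.20. In all, 81 of the alternative log2 ratios of single members left the counting interval of the main value and 276 did not.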
